A study of Glycine max with 16 samples.

Results

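The unstressed soybean leaf was described from the 4 arrays that the study labels as the leaf baseline, out of 16 arrays in the series. They were taken by that label alone, and no measured value entered the choice. RNA came from the youngest leaf that had finished expanding, on Glycine max plants of cultivar Williams 82 in a growth chamber. The chamber was held at 22 °C and 60% humidity, and lamps gave 350 µmol m-2 s-1 for 10 h a day. For each state 4 plants were picked at random, and the 4 baseline arrays are called plants 1 to 4 by the replicate number of their titles. The other 12 arrays, 4 per state, held the same leaf after stepwise warming from 22 °C towards 42 °C. Steps were of 2 °C and 10 min, and waits of 20 to 30 min are given besides. The warmed states were the photosynthetic optimum and the warmer points with 20% and 30% inhibition of photosynthesis. A warming curve lasted 3 to 4 h, so every warmed leaf was also taken later than the start of its curve. The labels do not say whether a plant gave leaves at more than 1 state.

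A mature leaf blade is mostly mesophyll, whose chloroplasts capture light with chlorophyll-binding proteins and photosystems and fix carbon through Rubisco and the Calvin cycle. Oxygen also enters Rubisco, and the photorespiratory pathway through the peroxisome and the mitochondrion recovers part of the carbon and releases ammonium, which glutamine synthetase takes up again. Soybean leaves also store nitrogen in vegetative storage proteins and vegetative lipoxygenases, which are kept in the paraveinal mesophyll. Heat shock proteins, the chaperones that bind unfolding proteins, are mostly made at low levels in a leaf that is not heated, and genes of the circadian clock follow the time of day.

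Values are MAS5 signals, 1 linear intensity per probe set and array, scaled to a common mean on every array. The array also carries probe sets of 2 soybean pathogens, the oomycete Phytophthora sojae and the cyst nematode Heterodera glycines, which should find no target in a healthy leaf. Background was set on each array at the 95th percentile of these pathogen signals. It lay at 91.2, 81.9, 79.5 and 74.5 in plants 1 to 4. Above it on all 4 arrays were 26924 of 37593 soybean probe sets, or 71.6%, while 5866 soybean probe sets, or 15.6%, lay below it on all 4. Of the pathogen probe sets, 0.847% of 15820 for Phytophthora sojae and 1.02% of 7530 for Heterodera glycines were above background on all 4 arrays. The median soybean probe set had a signal of 374.0 as a geometric mean over the 4 plants, against 12.1 and 13.9 for the pathogen sets.

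**Figure D1:**
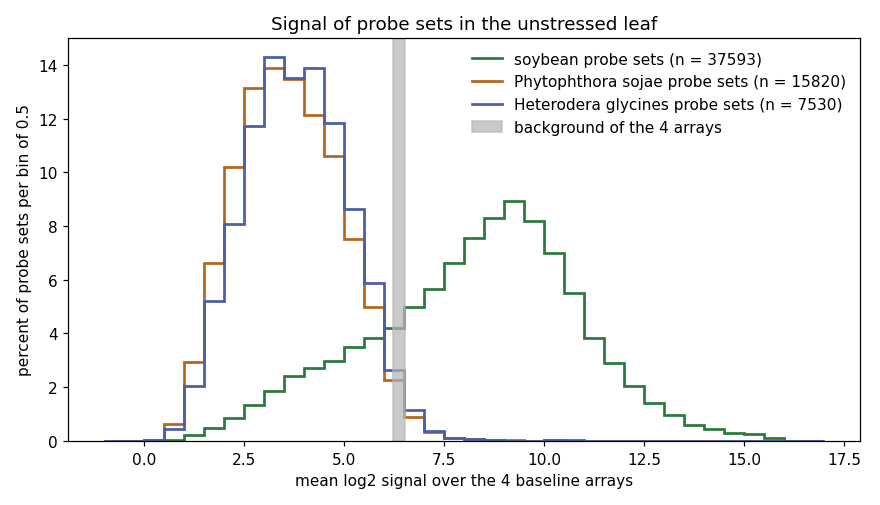
Distribution of the mean log2 signal over the 4 baseline arrays for soybean, Phytophthora sojae and Heterodera glycines probe sets, as the percent of each kind per bin of 0.5 log2 units. The grey band spans the background of the 4 arrays, 74.5 to 91.2 in signal, and 71.6% of the soybean probe sets were above their array's background in all 4 plants.

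The leaf label was checked against markers of the cell types a sample could hold. Of 12 mesophyll marker genes, 11 were above background in all 4 plants, among them the light-harvesting gene CAB3 and the photosystem I subunit gene PSAD. The exception was CA1, a carbonic anhydrase gene, whose single probe set read 70.1, 27.5, 33.4 and 111 and was above background only in plant 4. Most seed genes were dark, and most nodule genes were not above background in all plants. Of 39 developing-seed markers 5 were above background in all plants and 26 in none, and of 16 root-nodule markers 4 were above in all and 7 in none. Markers of dividing cells and meristem were not dark. Of these 5 genes 4 were above background in all plants, led by histone H4 with a geometric mean of 3233. The summed signal of the mesophyll markers ran from 604042 to 762451 across the plants, that of the seed markers from 38729 to 44931 and that of the nodule markers from 5508 to 6549. In a bulk sample, fewer cells of a type and less RNA per cell cannot be told apart.

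Brightness depends on the probes as well as on the transcript, so an order of signals is no order of transcript amounts. Among 443 named genes with several probe sets, the brightest set exceeded the dimmest by 3.06-fold at the median and by more than 10-fold in 135 genes, or 30.5%. PSAD shows the width of this spread, since its 5 probe sets ran from a geometric mean of 6.71 to 47066. Each gene below is given by its brightest probe set at baseline. Names were also scarce: the platform annotation pairs 8677 of the probe sets with 1 gene, and only 1873, of 1121 genes, carry a name that stands for a product. Of these 1121 genes, 857, or 76.4%, were above background in all plants and 150, or 13.4%, in none.

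Among genes with a product name, the brightest signals came from light harvesting, leaf storage proteins and the cell wall. All of the 100 brightest probe sets were soybean ones, with geometric means from 38346.3 to 68577.7, but 32 of them are not listed in the annotation and only 21, of 13 genes, have a product name. The brightest named gene was CAB3, a chlorophyll a/b-binding protein gene, at rank 3 of 61035, with signals of 61421, 63311, 71095 and 56604 in plants 1 to 4. LOXB1, a lipoxygenase gene, followed with 53447, 65017, 68097 and 53690. VSPA, a vegetative storage protein gene, had 52695, 64351, 66522 and 52651. In all 3 genes plant 3 was highest, and the spread between plants was 9.55 to 12.7% of the mean.

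Behind them stood VLXB, a vegetative lipoxygenase gene, with 57636 ± 5464 (mean ± SD, n = 4 plants), and PRP3, a proline-rich cell wall protein gene, with 57533 ± 5750. The light-harvesting gene LHCP reached 52411 ± 5371, PSAD 47253 ± 4881 and the second vegetative storage protein gene VSPB 44298 ± 6659. Both iron superoxide dismutase genes, which clear superoxide in plastids, were among the 25 brightest named genes, SODB with 49366 ± 4717 and SODB2 with 39220 ± 3622. So was the catalase gene CAT4, which removes peroxide in peroxisomes, with 37764 ± 3212. Ranks within these lists rest on differences that are often smaller than the SD, and VLXB and PRP3 cannot be told apart in signal.

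The rest of the 25 covered photorespiration, nitrogen, water transport and the upkeep of proteins. GmSHMT08m, a mitochondrial serine hydroxymethyltransferase of photorespiration, read 37491 ± 5434 and GS-2, a glutamine synthetase gene, 35436 ± 3371. PIP1-7, a plasma membrane aquaporin, had 35994 ± 2519, and the glycolytic gene GAPC1 had 34620 ± 2364. RCA14, a Rubisco activase that frees the active site of Rubisco from inhibitory sugars, had 34299 ± 4287, and DXR2, of the plastid isoprenoid pathway, 32112 ± 5076. Among genes of protein synthesis and turnover were TCTP with 38652 ± 2726, the polyubiquitin genes SUBI-1 (LOC100791065) with 35667 ± 1626 and SUBI-1 with 30715 ± 1388, and the elongation factor gene TEFS1 with 30305 ± 2099. MET2 (48063 ± 2866), GH (41024 ± 3117), SGT3 (LOC732565) (34724 ± 4235) and R1 (32048 ± 4667) complete the list and are given by symbol only.

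Bright genes varied little between plants, and they varied together. Their coefficients of variation ran from 4.52% for SUBI-1 to 15.8% for DXR2, with a median of 9.55%. Plant 3 was highest in 22 of the 25 genes and plant 2 in 3, while plants 1 and 4 were highest in 0. The share of all soybean signal held by the brightest 1% of probe sets was also highest in plant 3, with 23.6%, 24.3%, 25.98% and 22.4% in plants 1 to 4. The median SD of log2 signal of the 25 genes was 0.136 as deposited and 0.087 after quantile normalization, an alternative chosen after seeing the data.

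**Figure D2:**
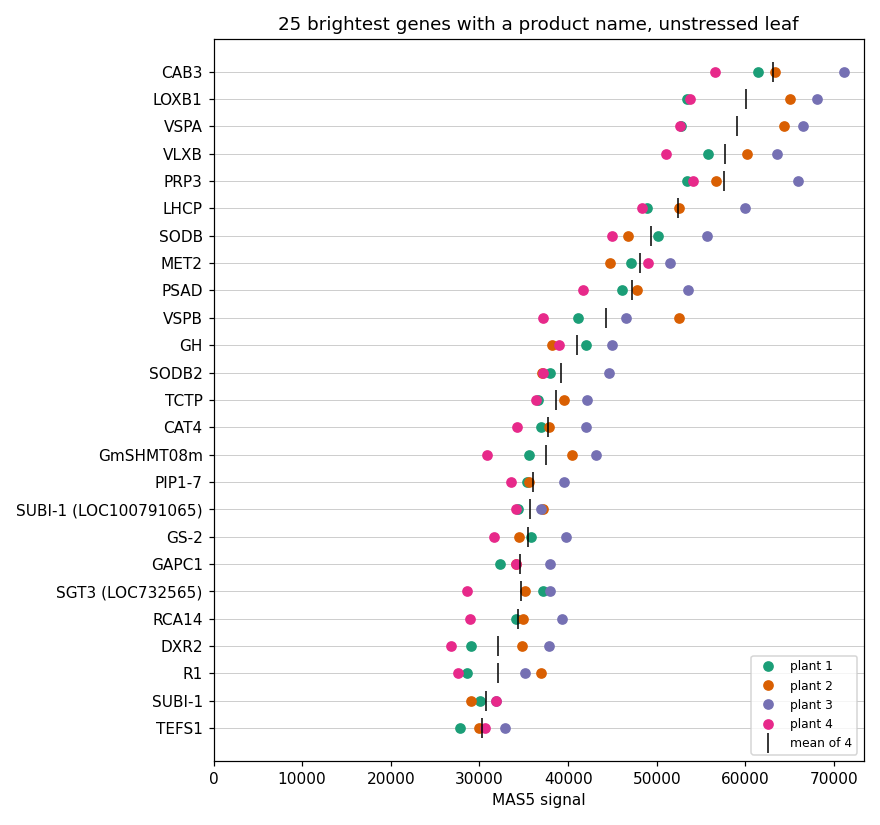
MAS5 signal (linear axis from 0) of the 25 brightest genes with a product name, with a point for each of the 4 plants and a bar at their mean. Plant 3 gives the highest point in 22 of the 25 genes, and coefficients of variation between plants lie between 4.52% and 15.8%.

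Genes of light capture and of the plastid were bright as a group. All 8 genes of photosystems, light harvesting and electron transport were above background in every plant, with a median signal of 22957. PTOX, the plastid terminal oxidase, was the dimmest of them at 697.6 ± 48.5. All 4 Rubisco activase genes were above background, but RCA14 and RCAALPHA (23941 ± 1752) lay far above RCA11 (1992 ± 236.4) and RCABETA (604.4 ± 196.3) in signal. ELIP, an early light-induced protein of the thylakoid, read 19488, 25135, 21742 and 16807. In the pathways to chlorophyll, haem, carotenoids and isoprenoids, 16 of 17 genes were above background, led by DXR2 and by CHLH, a subunit of magnesium chelatase, with 18585 ± 2785.

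Carbon and nitrogen metabolism showed broader ranges. Of 15 genes of carbon fixation and photorespiration 12 were above background in all plants, with a median signal of 961.1. After GmSHMT08m the brightest was FBP, a fructose bisphosphatase gene, with 17800, 18345, 19811 and 11828, so that plant 4 was lowest. The β-amylase genes BMY1 (LOC547931) and BMY2, which break down starch, led the 24 genes of starch, sucrose and sugar transport with 20010 ± 4792 and 6461 ± 1047, and 18 of the 24 were above background. Nitrogen assimilation had 25 of 26 genes above background and none below it in all plants. GS-2 was followed by the alanine aminotransferase gene ALAAT2 with 29170 ± 3975.

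Storage proteins and lipoxygenases were among the brightest lists. The median of the 12 genes was 22969, 9 were above background in every plant, and the highest were LOXB1 and VSPA. Genes of jasmonate synthesis and signalling, which start from lipoxygenase products, were all 9 above background at much lower signals, led by the repressor gene GmJAZ1 with 3734 ± 802.7 and the allene oxide cyclase gene AOC3 with 2579 ± 703.6. In AOC3 the 4 plants read 1986, 2134, 2653 and 3543, and plant 4 was also highest in GmJAZ1, at 4701.

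Of 42 flavonoid and isoflavonoid genes 31 were above background in all plants and 8 in none, or 72.7% of their probe sets against 71.6% of all soybean ones. The brightest were CYP93E1, a cytochrome P450 of triterpenoid synthesis that the list includes, with 21472 ± 4378, and the isoflavone reductase gene IFR2, with 10399, 19626, 22608 and 14656. In IFR2 plant 1 was lowest and plant 3 highest. For fatty acids and lipids 23 of 27 genes were above background, led by the oleate desaturase genes FAD2-2 with 16090 ± 1247 and FAD2-3 with 8585 ± 916.9.

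Lists of basic cell functions had most of their genes above background in all plants, against 76.4% of all named genes. All 9 genes of ribosomal proteins and translation factors and all 6 of actin, tubulin and profilin were above background, with the actin-depolymerizing factor gene ADF1 at 28311 ± 1552 and the profilin gene PRO2 at 15887 ± 1158. Of 11 genes of ubiquitin, the proteasome and autophagy 10 were above, and of 5 calmodulin genes 4, led by SCAM-2 with 12029 ± 1242 and SCAM-3 with 6834 ± 716.3. All 8 genes of 14-3-3 proteins, which bind phosphorylated partners, were above background, with GF14D at 9896 ± 898.2 and SGF14G at 7635 ± 844.6. Of 23 aquaporin genes 20 were above background, and after PIP1-7 the brightest was PIP2-8 with 16837 ± 3171. Median SDs of log2 signal among genes above background were 0.136 for the translation list and 0.176 for the cytoskeleton, against 0.247 over all 857 named genes above background.

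Antioxidant, detoxification and defence lists were near or below the share of all soybean probe sets, with 69.0% of probe sets above background for antioxidant enzymes, 67.2% for glutathione S-transferases and 61.1% for defence genes, against 71.6%. By genes the reference was 76.4% of all named genes, and the antioxidant and defence lists lay above it. Of 17 antioxidant enzymes 14 were above background in all plants. Glutathione S-transferases, which attach glutathione to toxic compounds, had 27 of 37 genes above background, and GSTU37 and GSTU3 were brightest with 18925 ± 1254 and 16652 ± 1901. Of 10 genes for metal binding and transport 8 were above, led by DMT1 with 18901 ± 2010 and the ferritin gene SFERH-3 with 12879 ± 1268. Of 23 pathogenesis-related and defence genes 18 were above, with HIR1 at 12835 ± 449.5 and DRR1 at 12758 ± 1368. In the cell wall list 9 of 13 genes were above, PRP3 being followed by the glycine-rich protein gene GRP with 21489 ± 1537.

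Chaperones covered the whole range of signals in the unheated leaf. The HSP90 gene HSP90-1 had 13825 ± 2064, the protein disulfide isomerase gene PDIL-1 10209 ± 2100 and BIP4, the chaperone of the endoplasmic reticulum, 3841 ± 1014. All 11 genes of the list of HSP70, BiP and protein disulfide isomerases were above background. The only HSP70-type genes in that list were BIP4 and BIP2, and it also held CCT-D, J1 and HOP1. Among the 12 cyclophilins, which turn proline bonds, 11 were above, with CYP1 at 16656 ± 577.1 and CYP10 at 7925 ± 284.5. Small heat shock proteins were much dimmer except HSP23.9, with 3330, 2858, 3472 and 5100. HSP17.5-E read 361.0, 234.6, 347.4 and 499.8 and HSP22.3 read 220.8, 157.5, 174.9 and 306.0, all above background, and HSP22.5 stayed below it in all 4 plants. In each of HSP23.9, HSP17.5-E and HSP22.3 plant 4 was highest and plant 2 lowest.

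Transcription factors gave low to middling signals with a few exceptions. Of 11 heat shock factor genes 8 were above background in all plants, and HSF-01, with 12336 ± 1098, stood far above the next, HSF-08, with 686.4 ± 314.8. Among 14 clock and photoperiod genes 11 were above. COL10, a CONSTANS-like gene, had 22389 ± 2240, and LHY, a MYB-type repressor of the morning, had 10327, 10722, 11590 and 9257. All 5 photoreceptor genes were above background, the cryptochrome gene GmCRY1c1 with 3789 ± 599.7 and the phytochrome gene PHYA with 1491 ± 245.0. Medians were 306.0 for 66 MYB genes outside the clock, of which 41 were above background, and 559.6 for 18 NAC genes, of which 15 were above. They were 432.1 for 53 WRKY genes, with 43 above, and 437.3 for 67 bZIP genes, with 52 above.

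In these families the brightest members were MYB176 (15416 ± 2434) and MYB175 (9549 ± 1930), NAC14 (6663 ± 1600) and NAC2 (2719 ± 512.6), WRKY58 (2722 ± 718.3) and WRKY57 (2719 ± 1135), and BZIP59 (4865 ± 945.3) and bZIP53A (4635 ± 159.9). DREB and ERF factors had 12 of 15 genes above background, with EREB at 7794 ± 1343 and DREB3 at 3959 ± 1229. Genes regulated by gibberellin, the GASA peptides and DELLA repressors, had 15 of 19 above, with GASA29 at 17083, 10255, 24924 and 18427 and GASA9 at 11598 ± 1873. Plant 2 was lowest in both GASA genes.

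Lists whose median gene lay below background were those of seed maturation and protease inhibitors, and the seed, nodule, flower and root markers. Of 38 functional lists 35 had most of their probe sets above background in all plants. The 3 others were seed maturation and dehydration proteins with 33.3%, trypsin and protease inhibitors with cysteine proteases with 8 of 20 probe sets, and the pair of HSP101 and BAG6A genes with 1 of 2, against 71.6% of all soybean probe sets. Median gene signals of the first 2 lists were 37.59 and 39.09, below the background of every array. Their brightest members were far from dark: SRC1 had 18353 ± 801.0, PM37 13287 ± 1190, R1 32048 ± 4667 and KTI-3 10740 ± 1682.

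Several seed genes lay below background, unlike PM37 of the seed markers and KTI-3 of the protease inhibitors. The seed markers held the trypsin inhibitor genes KTI3 and KTI1 but not KTI-3. Named for their roles after their values were seen, the glycinin genes GY1 and GY2 read 21.5, 3.90, 43.6 and 39.0, and 38.7, 65.6, 63.5 and 15.6, in plants 1 to 4. The trypsin inhibitor gene KTI3 had 25.2, 34.2, 12.4 and 5.72, and the developing-seed marker LEC1-A 20.7, 45.6, 13.5 and 30.8. P34, a seed vacuole protein, read 55.2, 30.0, 57.9 and 33.0. None of these 5 genes exceeded background in any plant. The conglycinin gene CG-1 read 59.2, 24.9, 88.0 and 11.8 and was above background in plant 3 only. Values below background have no order, and a signal below background does not show that a transcript was missing.

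Nodule, flower and root lists held a few bright exceptions. UR2, listed with the nodule uricases, had 2287 ± 122.7 and NOD33 1589 ± 364.0, whereas 7 of the 16 nodule genes were below background in all plants. Among 9 flower genes 3 were above background, the MADS-box genes AG1 with 2733 ± 680.3 and AGL3L with 1737 ± 229.3 among them. Of 3 root nutrient uptake genes only the nitrate transporter gene NRT2 passed, with 93.5, 123.8, 82.9 and 75.8, close to the background of each array, and it fell below at the 99th percentile. PHT1-3, a phosphate transporter gene, was below background in all plants at 55.9 ± 23.1.

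**Figure D3:**
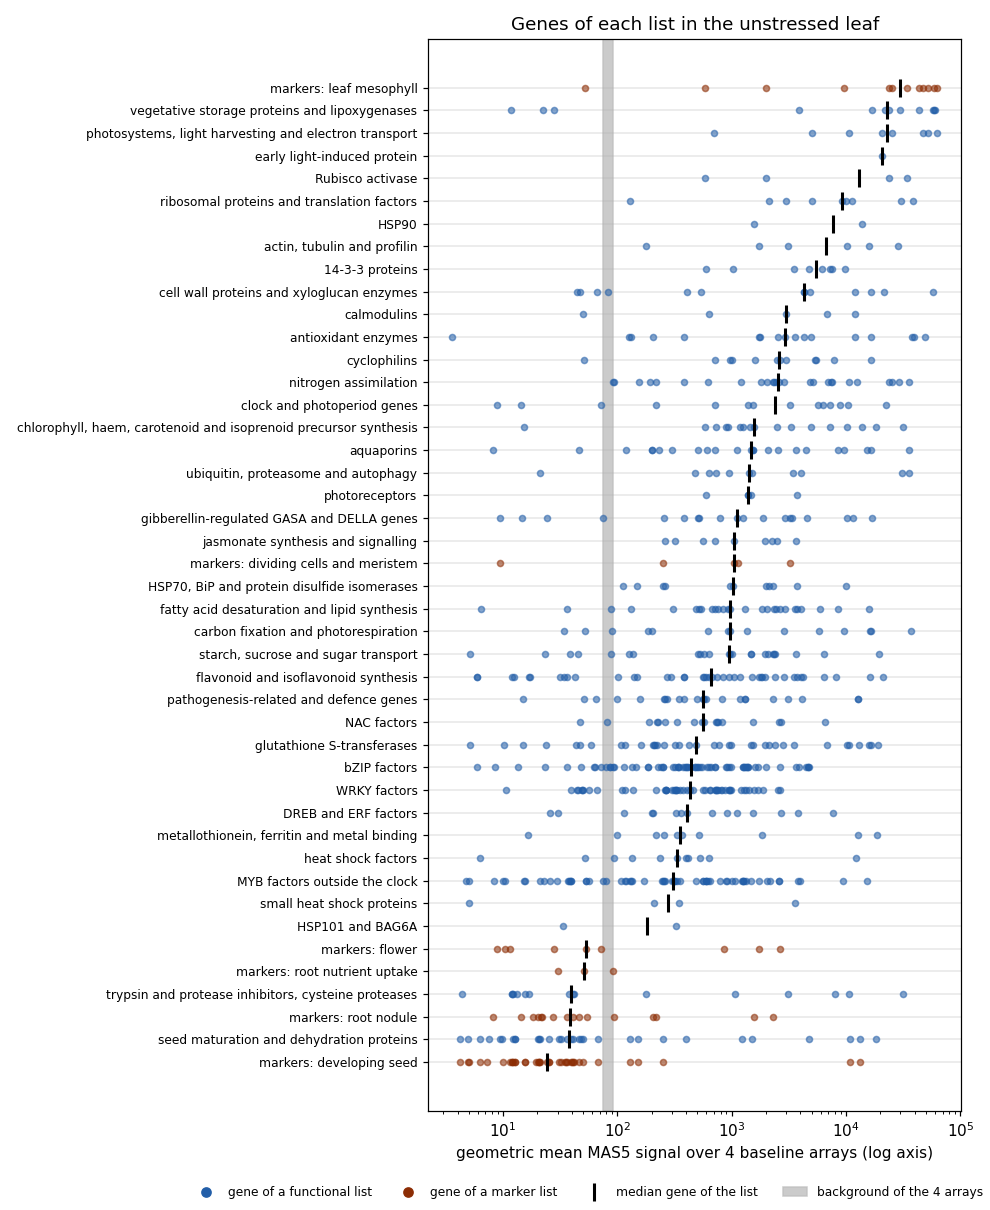
Geometric mean MAS5 signal over the 4 baseline arrays (log axis) of each named gene, a point per gene and a row per list, with a bar at the list's median and lists sorted by it. The grey band is the background of the 4 arrays, and the lists of seed maturation, protease inhibitor, flower, root, nodule and seed genes have their medians to its left.

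Most transcripts differed little between plants. Over the 26924 soybean probe sets above background the SD of log2 signal between the 4 plants had a median of 0.231, with 0.0995 at the 10th percentile and 0.49 at the 90th. The same probe sets had medians of 0.227, 0.277 and 0.235 in the 3 warmer states in turn. Spread shrank with signal, from a median of 0.317 in the dimmest 6731 of these probe sets to 0.185 in the brightest 6731. Pairs of baseline arrays correlated with r from 0.949 to 0.976 across these probe sets, a description that shares scaling and probe effects between all pairs.

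The steadiest named genes among bright probe sets were regulators and central enzymes. SKIP16, an F-box protein gene, read 3415, 3464, 3406 and 3400 in the 4 plants, a coefficient of variation of 0.847%. GS1beta1, a cytosolic glutamine synthetase gene, had 25087 ± 518.1, TFIIB1, a general transcription factor gene, 1960 ± 42.1, the kinase gene SNRK1 2808 ± 62.3 and the sterol methyltransferase gene SMT2-2 13410 ± 302.5. Being picked as the lowest of many SDs over 4 values, they were not all as steady in the warmed leaf. SKIP16 had an SD of log2 signal of 0.0122 at baseline and 0.231 at 20% inhibition, and GS1beta1 0.0299 at baseline and 0.268 at the optimum, whereas SMT2-2 stayed between 0.0325 and 0.0673 in the 4 states.

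A small set of transcripts differed several-fold between unstressed plants. An SD of log2 signal above 1 was found in 213 soybean probe sets, or 0.791% of those above background, and 19 named genes were among them. They fell into a few patterns of high plants: plants 1 and 4 were above the mean in 66 of the 213 probe sets, plants 1 and 3 in 49, and plant 2 alone in 39. Plant 2 was farthest from the other plants in 118 of the 213, or 55.4%, plant 4 in 51, plant 3 in 28 and plant 1 in 16. In the optimum, 20% and 30% inhibition states the same probe sets had median SDs of 0.635, 0.968 and 0.679, against 0.227, 0.277 and 0.235 for all probe sets above background.

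Of the named genes, 6 showed the pattern of plants 1 and 3. GASA3 was the most variable named gene, with 1438, 139.3, 2704 and 136.0, a 19.9-fold range. ADR11, named for its fall under auxin, read 4479, 299.4, 4062 and 1164, and GASA11 read 1101, 116.9, 1232 and 418.5. The aquaporin gene PIP1-6 had 4675, 726.8, 4470 and 1245. In these 4 genes plants 1 and 3 lay above both plants 2 and 4, and plant 2 or 4 was lowest. The same 2 plants were above the geometric mean in PIP2-1 and in the cytochrome P450 gene CYP76O2, with 2908, 442.0, 857.6 and 438.4, where plant 1 stood alone at the top. GASA6 and the xyloglucan endotransglucosylase gene XTH1 were low only in plant 2, at 401.6 and 131.4.

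Of the named genes, 6 were high in plants 1 and 4. PR10, a pathogenesis-related protein gene, had 494.5, 275.5, 153.3 and 1073, the class I chitinase gene chib1-a 380.0, 137.8, 126.4 and 670.8, and the glutathione S-transferase gene GSTU21 1075, 294.8, 360.3 and 2187. Plant 4 was highest and plant 1 next in each of the 3, with plants 2 and 3 below. SGlu11, CHIA1, a chitinase gene, and GSTU18 were high in the same 2 plants. The markers of dividing cells moved with these plants: their summed signal was 9677, 4674, 3987 and 9218, and histone H4 read 5989, 2172, 1645 and 5103 and the replication clamp gene PCNA 1179, 790.6, 770.7 and 1686. The part of dividing cells in these differences was not tested. SGlu11, CHIA1, GSTU18, PIP2-1, GASA6, XTH1 and PCNA were named after their values were seen.

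The other patterns held fewer named genes. VPE2, a vacuolar processing enzyme gene, was 5858 in plant 2 against 564.9, 827.9 and 468.8 in plants 1, 3 and 4, a 12.5-fold range. SCOF-1, a cold-inducible zinc finger gene, was high in plants 2 and 4 with 1219 and 598.6, against 383.1 in plant 1 and 141.9 in plant 3. Also seen after the values were known were NAC69, high in plants 2 and 4, HS1pro1, high in plants 1 and 2, and OAS-TL2, a cysteine synthesis gene, high in plants 2 and 3. Of the 10 most variable genes 1 kept an SD above 1 among the 4 plants of the optimum, 6 at 20% inhibition and 3 at 30% inhibition. GASA11 had an SD above 1 in all 4 states, and GASA3 spread from 49.4 to 1821 at 30% inhibition.

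**Figure D4:**
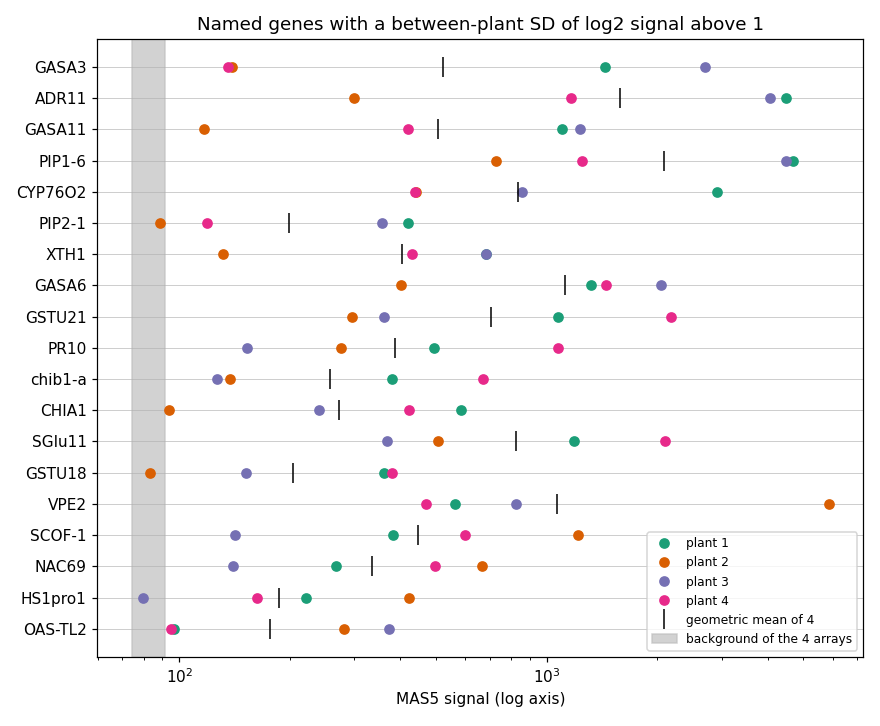
MAS5 signal (log axis) of the 19 named genes whose SD of log2 signal between the 4 baseline plants exceeded 1, a point per plant and a bar at the geometric mean, grouped by the plants above it. GASA3, ADR11, GASA11 and PIP1-6 are high in plants 1 and 3, and GSTU21, PR10 and chib1-a in plants 1 and 4.

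Within several families the same plant was highest or lowest in most probe sets. Over all soybean probe sets above background, plants 1 to 4 were highest in 20.8%, 27.9%, 20.5% and 30.7% and lowest in 5388, 8277, 5665 and 7594 of the 26924. Plant 4 gave the highest signal in 9 of 9 HSP90 probe sets and 6 of 6 for small heat shock proteins. It was also highest in 14 of 17 for the list with BiP and protein disulfide isomerases and 11 of 12 for calmodulins. HSP90A1, the inducible HSP90 gene, is an example, with 1388, 1183, 1086 and 3424. Plant 4 was lowest in 13 of 15 probe sets of photosystems and electron transport and in 21 of 31 of storage proteins and lipoxygenases. Several probe sets report the same gene, so these counts are not independent.

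The families of transcription factors differed in this. Plant 2 was highest in 39 of 59 MYB probe sets outside the clock, 42 of 79 for WRKY and 14 of 25 for NAC, and lowest in 4, 5 and 0 of them. It was highest in 31 of 73 bZIP probe sets and lowest in 16, highest in 7 of 19 for DREB and ERF and lowest in 5, and highest in 5 of 12 for heat shock factors and lowest in 0. Plant 3 was lowest in 41 of the 79 WRKY probe sets and 17 of the 25 NAC probe sets. The WRKY gene WRKY57 read 2147, 4345, 1779 and 2604, and in DREB3 plant 2 had 5753 against 3229, 3751 and 3102. For the GASA and DELLA list plant 2 was instead lowest, in 14 of 22 probe sets. These counts are descriptions, and no test was made of them.

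The unstressed leaf was then set against the 12 warmed leaves. Array measures differed in the direction of a lower background at baseline but did not pass. Background was 81.8 ± 7.002 at baseline (n = 4) and 107.6 ± 28.2 in the warmed leaves (n = 12), and soybean probe sets above background numbered 29258 ± 253.5 and 27985.6 ± 1271.0 per array. The brightest 1% of soybean probe sets held 24.1% ± 1.49 of the signal at baseline and 25.7% ± 1.55 after warming. Exact permutation tests, two-sided and on log2 values for the background, gave p = 0.072, 0.0648 and 0.0868, and 0.0868 for each after Benjamini-Hochberg adjustment over the 3 measures, where the smallest p possible is 0.00055. The log2 difference between the 3′ and 5′ probe sets of a control transcript, GlutTrans, averaged 0.07 ± 0.25 before warming, then 0.80 ± 0.16, 0.90 ± 0.16 and 0.83 ± 0.13 for the 3 warmed states. It ran from -0.28 to 0.28 at baseline and from 0.63 to 1.13 in the warmed leaves, and its part in the differences below was not tested. Warming and later sampling cannot be told apart in this design.

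By limma, 10866 of 30517 probe sets tested, or 35.6%, differed between baseline and the mean of the 3 warmed states at an adjusted p under 0.05. Of these, 5553 were higher at baseline (18.2% of those tested) and 5313 lower (17.4%), and for 3680 (12.1%) the 4 baseline and 12 warmed values did not overlap. The median difference of all probe sets tested was 0.01 on the log2 scale. Counts for the lists below are to be read against these percents. Replicate 3 of 20% inhibition had the highest background of the 16 arrays, 162.6, and without it 11165 probe sets differed.

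Genes of the morning clock were among the named genes with the largest differences in favour of the unstressed leaf. MYB114 had 2946, 3029, 4108 and 3085 at baseline, 516.5 at the optimum and 55.4 and 26.1 at 20% and 30% inhibition, where none of the 8 arrays was above background. Its fitted difference was 5.28 ± 0.35 (SE) on the log2 scale (adjusted p = 9.25e-09), and depends on signals below background. MYB134, which RefSeq gives as another name of MYB114 although the platform lists it as a gene of its own, read 7272, 6615, 8277 and 6919 at baseline and averaged 1135, 159.8 and 110.9 in the 3 warmed states, a difference of 4.75 ± 0.13 (adjusted p = 2.01e-13), with 9 of the 12 warmed arrays above background. LHY fell from a mean of 10474 to 4637, 608.3 and 598.7, a difference of 3.16 ± 0.16 (adjusted p = 4.61e-10). No baseline value of these 3 genes overlapped a warmed value, which the rule for picking the largest differences required. MYB186 and LCL3, of the same clock group, were higher at baseline by 2.83 ± 0.16 and 2.79 ± 0.54, with adjusted p of 9.59e-10 and 0.000756.

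Not all clock genes went the same way. LUXC, a gene of the evening, read 166.7, 254.8, 230.3 and 240.2 at baseline and 311.5, 1188 and 1428 after warming, a difference of -1.86 ± 0.14 (adjusted p = 6.23e-08). Among all clock and photoperiod genes 9 of 14 tested probe sets were higher at baseline and 2 lower, with a median difference of 0.63. Outside the clock the largest were MYB118, a MYB factor, at 1523 ± 417.7 and GT4, a glycosyltransferase gene, at 1456 ± 308.5. Their differences were 3.25 ± 0.42 and 3.13 ± 0.36, with adjusted p of 1.59e-05 and 4.34e-06, and 9 and 8 of the 12 warmed arrays were above background.

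Genes of the plastid differed less. ELIP was higher at baseline by 2.26 ± 0.17 (adjusted p = 4.88e-08), with 20793 ± 3528 against 8456, 2900 and 3482 in the warmed states. Of the Rubisco activase genes, RCA14 was higher by 0.46 ± 0.10 (adjusted p = 0.00121) and RCAALPHA by 0.42 ± 0.11 (adjusted p = 0.00604). RCA14 was also among the 25 brightest named genes at baseline. That choice favours higher values there, so its p-value is no independent support. Over the 6 Rubisco activase probe sets tested, 4 were higher at baseline and 0 lower. RCABETA, at 0.39 ± 0.22 (adjusted p = 0.183), and RCA11, at -0.37 ± 0.15 (adjusted p = 0.0685), did not pass. RCA11 was lower at baseline, at -0.42 (adjusted p = 0.0263), once replicate 3 of 20% inhibition was left out. The list of photosystems and electron transport had 2 of 15 probe sets tested higher at baseline and 0 lower, with a median difference of -0.11.

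Lists of carbon, nitrogen and flavonoid metabolism held more probe sets higher at baseline than lower. Higher at baseline were 18 of 43 probe sets tested for nitrogen assimilation, with 1 lower, and 9 of 15 for carbon fixation and photorespiration, with 1 lower. For flavonoid and isoflavonoid synthesis 31 of 69 were higher and 4 lower, with a median difference of 0.69. Jasmonate genes had 7 of 17 higher and 3 lower, and starch and sugar genes 12 of 34 higher and 7 lower. Storage proteins and lipoxygenases had 0 of 32 higher and 3 lower, with a median difference of -0.05.

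Heat shock proteins gave the largest differences the other way. HSP22.3, at 214.8 ± 66.4 in the unstressed leaf, averaged 980.1 at the optimum and 32279 and 27055 at 20% and 30% inhibition, a difference of -5.51 ± 0.13 (adjusted p = 7.94e-14). HSP17.5-E went from 360.7 ± 108.7 to 1243, 52719 and 49400 (-5.40 ± 0.15, adjusted p = 1.8e-13), and HSP90A1 from 1770 ± 1110 to 19907, 63445 and 59671 (-4.74 ± 0.22, adjusted p = 1.04e-10). SB100, an HSP101 chaperone, and HSP23.9 differed by -3.97 ± 0.24 and -3.29 ± 0.13, with adjusted p of 2.75e-09 and 2.49e-11. In all 5 genes the plant-to-plant range at baseline, up to 3424 in plant 4 for HSP90A1, stayed below the lowest warmed value. The rule that picked these 5 genes required this, so it is no added support.

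HSP22.5 was below background in every baseline and optimum array and reached 4650 and 4421 at 20% and 30% inhibition, at least 56.3-fold and 49.4-fold over the baseline background by geometric means. BAG6A, a cochaperone gene, was above background in 1 of 4 baseline arrays and averaged 47.6 ± 33.6 there, against 127.2, 4511 and 4108 in the warmed states, with a fitted difference of -5.16 ± 0.52 (adjusted p = 1.18e-06) that rests on signals below background and was -4.37 without plant 1. HSP90-1 differed by -0.91 ± 0.11 (adjusted p = 1.1e-05). Small heat shock proteins had 8 of 8 probe sets lower at baseline and HSP90 9 of 10. The list with BiP and protein disulfide isomerases had 7 of 17 lower and 2 higher.

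Heat shock factors were mixed. HSF-01, the bright one, did not pass, with a difference of 0.01 ± 0.11 (adjusted p = 0.975). HSF-08 went from 686.4 ± 314.8 to 4067, 6740 and 8954 (-3.24 ± 0.27, adjusted p = 1.39e-07), HSF-26 differed by -2.98 ± 0.22 (adjusted p = 4.59e-08) and HSF-03 by -2.69 ± 0.20 (adjusted p = 4.12e-08). HSF-35, HSF-33 and HSF-15 were lower by smaller amounts, at -1.31 ± 0.24, -0.69 ± 0.14 and -0.57 ± 0.14, with adjusted p of 0.000397, 0.000978 and 0.00462. HSF-10 was higher at baseline by 0.65 ± 0.21 (adjusted p = 0.0259), a call lost without plant 2 (adjusted p = 0.0647) or plant 4 (adjusted p = 0.116). HSF-14 and HSF-30 did not pass, HSF-30 being below background in all 4 baseline plants, with differences of 0.25 ± 0.14 (adjusted p = 0.187) and -0.63 ± 0.38 (adjusted p = 0.218).

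**Figure D5:**
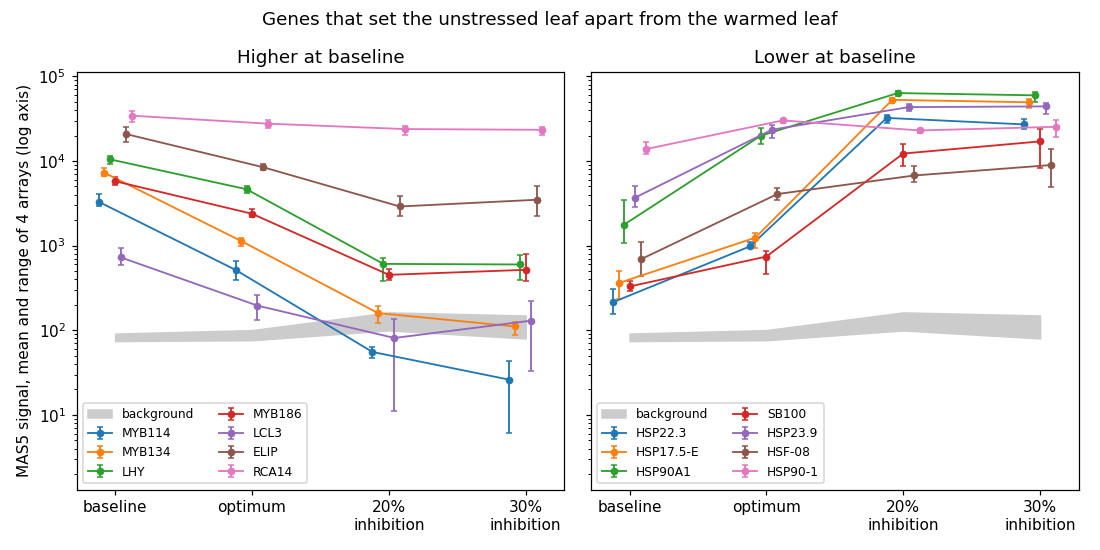
MAS5 signal (log axis) of 7 genes named as higher and 7 as lower at baseline, as the mean of 4 arrays per state with bars from the lowest to the highest array and the range of the array background in grey. MYB114 lies below the background band at 20% and 30% inhibition, and HSP22.3 goes from a mean of 214.8 at baseline to 32279 at 20% inhibition.

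Several other lists held more probe sets lower at baseline than higher, while the lists of transcription factors were divided. Fatty acid and lipid genes had 17 of 36 probe sets tested lower at baseline and 7 higher, glutathione S-transferases 15 of 45 lower and 7 higher, aquaporins 13 of 34 lower and 4 higher, and seed maturation and dehydration proteins 10 of 18 lower and 3 higher. Among transcription factors, 21 of 67 MYB probe sets were higher and 15 lower, and 16 of 89 WRKY higher and 6 lower. For bZIP 11 of 87 were higher and 22 lower, and for NAC 3 of 29 higher and 8 lower. Over all probe sets tested 18.2% were higher and 17.4% lower. Defence genes had 1 of 26 higher and 3 lower and protease inhibitors 0 of 8 either way, both lists below the shares over all probe sets.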

How the data were processed

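The deposited values are intensities on a linear scale, produced by the authors with MAS5, per the submitters' processing notes, from the Affymetrix soybean array. A trimmed mean of 500.0 on all 16 arrays shows a common scaling. The 135 control probe sets were left out. Signals were taken to log2 without a pseudocount. Differences were fitted with limma 3.58.1 in R 4.3.3 over all 4 states, as baseline minus the mean of the 3 warmer states, with a mean-dependent prior and Benjamini-Hochberg adjustment at 0.05. Probe sets with a mean log2 signal above the median, 6.079, were tested. The fit was tested on simulated data. Named genes were the 25 brightest, the 10 most and 5 least variable, and the 2 brightest of each list. Clock, heat shock and Rubisco activase genes were named too. The 5 largest differences each way were taken among genes outside the 25 brightest. These had to have an adjusted p under 0.05 and no overlap of baseline and warmed values. Others are said in the text to have been named after their values were seen. Members and lists were chosen with earlier results of these data known. Names came from the platform annotation, 8652 probe sets matching RefSeq (Glycine_max_v4.0). The number of arrays limits precision. Alternatives are given with the closing section.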

Additional observations from a re-analysis of the deposited data

Results flagged for a closer look

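Dixon's 95% critical value for 4 samples was applied to 144 items, which were named genes and a few array measures. In 6 genes the gap of a baseline plant to the nearest other plant passed it, and chance alone flags about 1 in 20 such groups. SODB2, an iron superoxide dismutase gene, was highest in plant 3 at 44618.4. DRR1, a disease resistance response gene, was highest in the same plant at 14790.7, as was the clock gene MYB114 at 4107.8. TFIIB1 was highest in plant 2 at 2022.7. GT4 was lowest in plant 2 at 998.8, and the profilin gene PRO2 was lowest in plant 1 at 14167.6.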

How the results depend on the processing

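The brightest 5% of soybean probe sets held 50.41% of the signal, and the brightest 1% of all probe sets without controls held 30.64%; both follow from the larger set counted. Leaving out each plant gave a median SD of log2 signal from 0.1988 (without plant 4) to 0.2336 (without plant 3), with 0.2019 without plant 2. Probe sets above background numbered 24387 to 30996 with the background at the 99th and 75th percentiles, against 27169. Between 96 and 99 of the 100 brightest probe sets stayed among the brightest under the alternatives. Between 7573 and 11165 probe sets differed from the warmed leaves under the alternatives, with 8463 when array background was a covariate and 8973 to 9637 without 1 baseline plant. The lowest count was of 15259 tested above the upper quartile of signal, and without a filter 9676 of 61035 differed. All other counts were of 30517 tested. Same-numbered arrays did not pair: 7 of 24 pairs correlated above 0.1, from -0.2782 to 0.2167, and the fit with the replicate number as a block called 10460. Of the 31 genes tested, 29 kept their side of the threshold under every alternative run, though HSF-01, which passed under none, changed sign in 3 of them (down to -0.1565 with the background covariate); the exceptions were HSF-10, without plant 2 (0.6294) or 4 (0.5072), and RCA11, without replicate 3 of 20% inhibition (-0.4214), an alternative chosen after seeing the data. The root uptake list had 0% above background at the 99th percentile. Without plant 1 the difference of BAG6A was -4.366. Signals below background limit the fold changes of MYB114, MYB134, MYB118, LCL3, GT4, BAG6A, HSF-30, HSF-35 and HSP22.5.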

Other observations

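Bright transcripts were largely shared between the states. Of the 100 brightest probe sets of the unstressed leaf, 87, 77 and 74 were among the 100 brightest of the optimum, 20% and 30% inhibition, a description of lists of equal length. A pair of probe sets designed for Phytophthora sojae stood among the 1000 brightest, at ranks 714 and 938, with 10834 ± 1811 and 8777 ± 602.4 (SD, n = 4 plants). They read 7546, 12727 and 11752, and 10710, 13623 and 13306, as means of the 3 warmer states in turn.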
